A study of Homo sapiens with 42 samples.

Results

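The genes described here were 10 erythroid transcription factors and globin repressors, namely GATA1, GATA2, KLF1, TAL1, LMO2, LDB1, NFE2, ZFPM1, MYB and BCL11A. They were chosen by name and found by Ensembl gene ID in both count tables, which made them 10 of 58243 gene IDs. K562, an established human cell line from chronic myeloid leukaemia that depends on the BCR-ABL1 kinase, was left untreated (CTRL) or treated in 1 of 3 ways. Imatinib (IM, 1 µM), an inhibitor of that kinase, was given for 1, 6 or 18 h. JTE-607 (JTE, 5 µM), which targets the nuclease that cleaves nascent transcripts at their 3′ ends, was given for 1, 6 or 18 h. KCl (110 mM), a hyperosmotic stress, was given for 1 or 3 h. Poly(A) mRNA was sequenced from all 9 of these groups, and nuclear RNA depleted of ribosomal RNA from CTRL, IM 1h, IM 18h, JTE 1h and KCl 1h. Each group held 3 biological replicates of the same cell line, and no vehicle control was described for CTRL. The question asked here was how the factors that set erythroid identity moved in each treatment.

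GATA1 and GATA2 bind the same DNA motif, with GATA2 acting in blood progenitors and GATA1 replacing it as red cells mature. GATA1 works with the cofactor ZFPM1 (also called FOG1) and in a complex with TAL1, LMO2 and LDB1, the last of which bridges enhancers and promoters. KLF1 binds CACCC boxes in globin and other red cell genes, and NFE2 pairs with small MAF proteins at the globin locus control region. MYB keeps progenitors dividing and, like BCL11A, is known as a repressor of fetal globin.

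Sequences around annotated start sites of these genes are shown first, because the factors bind such regions of each other's genes. RefSeq promoter windows on GRCh38.p14, which run from 250 bases before to 50 bases after a start site, were present for 8 of the 10 factors, with 14 windows in all. BCL11A supplied 5 of the 14, and some windows, such as the only one of LDB1, lay within the gene. A GATA motif was searched as AGATA or TGATA followed by A or G, and a CACCC box as CACCC. Both were searched on both strands, and overlapping matches were kept. The promoters of KLF1 and TAL1, which rose with imatinib, and of GATA2 and MYB, which fell, are printed with these motifs in capitals.
KLF1, chr19:12887152-12887451, minus strand: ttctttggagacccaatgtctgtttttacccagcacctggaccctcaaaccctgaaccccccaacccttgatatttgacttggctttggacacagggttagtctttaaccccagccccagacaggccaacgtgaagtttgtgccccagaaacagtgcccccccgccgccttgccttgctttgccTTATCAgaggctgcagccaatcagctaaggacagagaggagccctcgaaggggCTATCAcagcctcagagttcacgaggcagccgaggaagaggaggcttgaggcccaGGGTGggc
TAL1, first of 2 promoters, chr1:47232286-47232585, minus strand: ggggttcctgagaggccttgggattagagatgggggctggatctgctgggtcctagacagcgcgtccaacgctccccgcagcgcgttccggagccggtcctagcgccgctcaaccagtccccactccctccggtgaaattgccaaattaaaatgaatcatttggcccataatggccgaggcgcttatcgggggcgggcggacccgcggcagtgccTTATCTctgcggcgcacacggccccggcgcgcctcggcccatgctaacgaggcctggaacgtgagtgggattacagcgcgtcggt
GATA2, first of 2 promoters, chr3:128493152-128493451, minus strand: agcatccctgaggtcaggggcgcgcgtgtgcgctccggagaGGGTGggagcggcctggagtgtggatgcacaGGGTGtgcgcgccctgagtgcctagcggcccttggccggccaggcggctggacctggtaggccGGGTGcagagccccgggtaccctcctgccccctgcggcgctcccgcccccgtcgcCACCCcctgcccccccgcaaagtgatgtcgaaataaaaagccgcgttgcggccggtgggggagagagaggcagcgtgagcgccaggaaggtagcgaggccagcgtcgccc
MYB, chr6:135181058-135181357, plus strand: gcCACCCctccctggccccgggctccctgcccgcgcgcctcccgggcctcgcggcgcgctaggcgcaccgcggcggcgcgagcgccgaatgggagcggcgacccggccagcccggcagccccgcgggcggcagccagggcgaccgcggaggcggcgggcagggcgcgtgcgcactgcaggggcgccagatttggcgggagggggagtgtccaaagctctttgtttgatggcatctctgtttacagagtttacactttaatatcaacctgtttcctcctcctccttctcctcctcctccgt
The KLF1 window held 2 GATA motifs, which began 66 and 13 bases upstream of the start site, and the TAL1 window held 1, which began 35 bases upstream. No other window of the 8 factors held one, so 2 of 14 windows did, where 25.0% of all 35116 RefSeq promoter windows do. A CACCC box was found in 11 of the 14 windows, against 59.9% of all windows, and the GATA2 window shown held 4. These matches are letters in a window and were not tested as binding sites.

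Library totals lay between 16439848 and 22505595 counts in mRNA, except for KCl 1h replicates 2 and 3 (62953314 and 42474454), and between 16175394 and 25103205 in nuclear RNA. Levels are given in CPM, counts scaled to the effective library size. A gene was called where edgeR's quasi-likelihood test gave a Benjamini-Hochberg adjusted p under 0.05 over all genes tested and a log2 fold change beyond 0.6. Statements below that the libraries of a group lay above, below or apart from those of another are descriptions. The share of all genes separated in this way was not counted, so such statements are no test. Tests covered 18095 genes in mRNA and 21929 in nuclear RNA, and 9 of the 10 factors passed the low-count filter in each fraction. The 7 genes taken to mark K562 cells were all present in mRNA CTRL, with means from 68.5 CPM for HBZ to 1332 CPM for TFRC. Summed markers of other lineages in mRNA CTRL ran from 3.56 to 6.52 CPM for megakaryocytes, 5.76 to 11.2 CPM for myeloid cells and 2.42 to 2.73 CPM for lymphoid cells. PF4, GP9, PPBP, ELANE and MS4A1 had a mean of 0 there.

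In untreated cells the 10 factors spanned a wide range of levels. On a scale of CPM per kilobase of merged exons, GATA1 was highest in mRNA CTRL at 110 ± 16.6 (SD, n = 3), and NFE2 followed at 87.0 ± 7.02. LDB1 had 60.9 ± 6.43 and KLF1 had 53.7 ± 6.18 CPM per kb, and the libraries of these neighbours overlapped. GATA2 (42.7 ± 3.57) and MYB (40.0 ± 5.77) overlapped in the same way, as did TAL1 (27.1 ± 2.20) and LMO2 (26.4 ± 8.29). ZFPM1 stood well below them at 4.33 ± 0.838 CPM per kb. The other neighbouring pairs in this order did not overlap between libraries.

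Nuclear RNA of CTRL gave the same order, from GATA1 at 148 ± 13.1 CPM per kb to ZFPM1 at 6.24 ± 0.502. There GATA1 overlapped NFE2 (130 ± 8.87), KLF1 (83.3 ± 13.3) overlapped both LDB1 (85.4 ± 7.99) and GATA2 (66.5 ± 4.62), and MYB (37.3 ± 3.90) overlapped TAL1 (35.7 ± 4.46). After 18 h of imatinib the order in mRNA was different, with NFE2 (125 ± 9.68 CPM per kb) and KLF1 (116 ± 10.5) above GATA1 (96.0 ± 7.40). TAL1 stood at 74.1 ± 6.33, while MYB (14.2 ± 4.17) and GATA2 (9.68 ± 1.80) were near the bottom, above ZFPM1 (6.93 ± 0.788). Neighbours whose libraries overlapped in IM 18h were NFE2 and KLF1, KLF1 and GATA1, MYB and GATA2, and GATA2 and ZFPM1.

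BCL11A (ENSG00000119866, chr2:60451167-60553567), the best known silencer of fetal globin, was essentially without counts. It had 1 count in each of 2 mRNA libraries, JTE 6h replicate 3 and KCl 3h replicate 3, and 0 in the other libraries. A total of 3 counts, the limit that a count of 0 allows, corresponds to 0.0502 to 0.186 CPM in the mRNA libraries and 0.121 to 0.176 CPM in the nuclear libraries. Its expression was therefore not detectable at this depth in any group, and no change was tested. Such limits cover counting error only.

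The first comparison followed the factors through imatinib treatment. GATA2 and MYB fell, KLF1 and TAL1 rose by 6 h, and LMO2 rose by 18 h, whereas GATA1 was not called at any time. In bulk RNA such as this, fewer cells with a transcript and less of it per cell cannot be told apart. At 1 h no factor was called by edgeR, none had an unadjusted p under 0.05, DESeq2 called 0, and 0.0166% of all genes were called. At 6 h, 4 of the 9 factors tested were called, 2 higher and 2 lower, where 9.94% of all genes were called (5.82% higher and 4.12% lower). At 18 h, 5 of 9 were called, 3 higher and 2 lower, where 30.5% of all genes were called (17.2% higher and 13.2% lower). The median log2 fold change of the 9 factors at 18 h was 0.54, beside 0.04 over all genes tested.

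**Figure D1:**
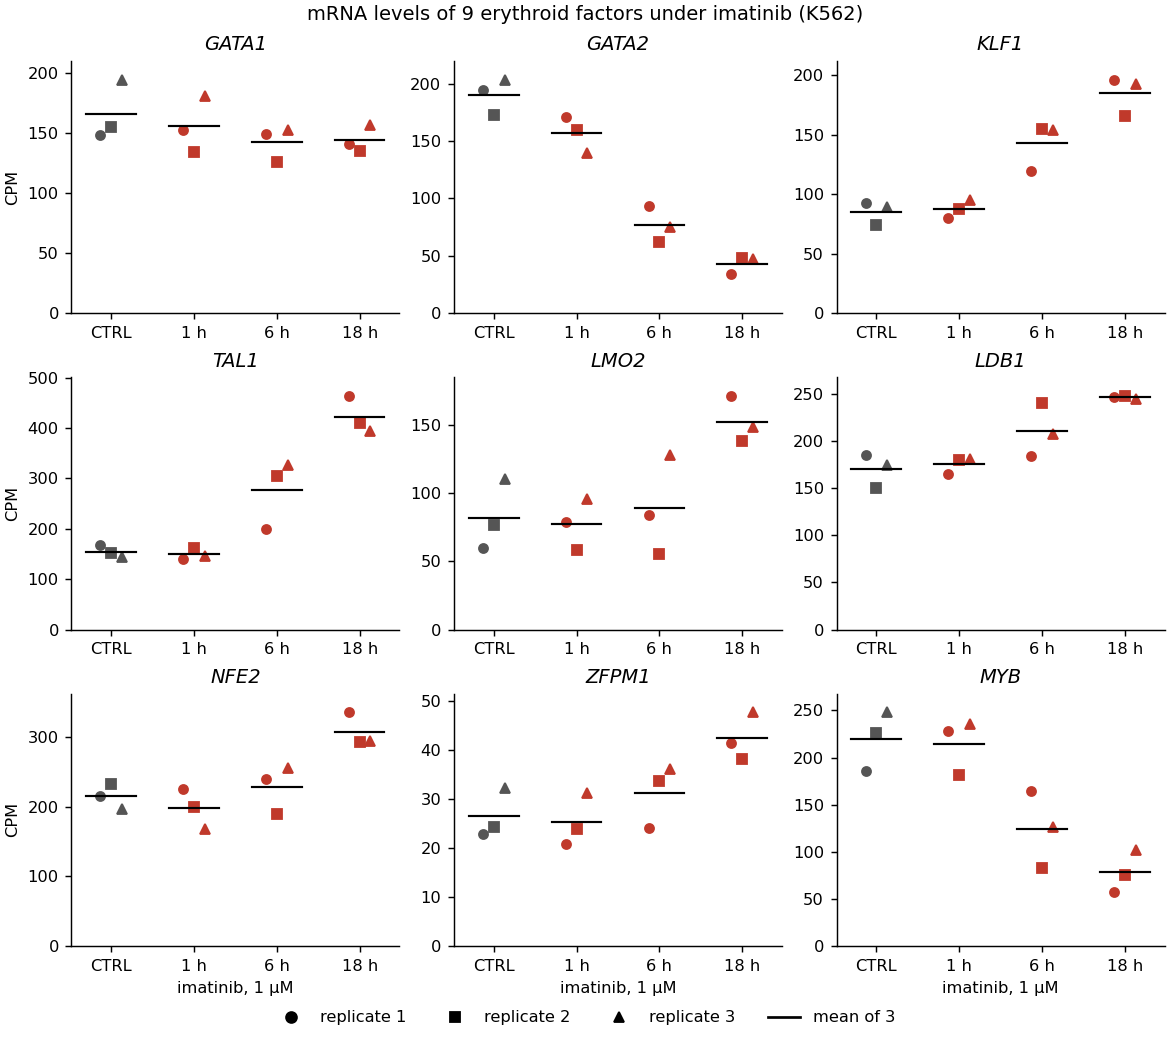
mRNA level in CPM (vertical axis, from 0) of the 9 factors that passed the low-count filter, in CTRL and after 1, 6 and 18 h of 1 µM imatinib. Each symbol is 1 library, its shape gives the replicate number and the bar is the mean of 3. GATA2 and MYB step down and KLF1 and TAL1 step up between 1 and 18 h, while the GATA1 libraries overlap at all times.

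GATA2 (ENSG00000179348, chr3:128479427-128493185), the progenitor GATA factor, had 195, 173 and 203 CPM in the mRNA CTRL replicates 1 to 3. It had 171, 160 and 139 CPM in IM 1h, 93.8, 62.4 and 75.5 CPM in IM 6h, and 33.9, 48.1 and 47.5 CPM in IM 18h. The libraries of every imatinib time lay below all CTRL libraries, and those of 6 h and 18 h did not overlap each other or 1 h. The log2 fold change from CTRL was -0.28 (SE 0.16) at 1 h with an edgeR adjusted p of 1, -1.30 (SE 0.16) at 6 h with 1.29e-05, and -2.14 (SE 0.17) at 18 h with 2.91e-09. Expressed as a ratio, the IM 18h level was 0.227 of that in CTRL. This was the largest fall among the 9 factors tested at 18 h and the widest range over the 9 mRNA groups.

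MYB (ENSG00000118513, chr6:135181315-135219173), the proliferation factor and globin repressor, had 185, 227 and 248 CPM in CTRL and 228, 181 and 235 CPM in IM 1h, which overlapped. It had 165, 82.2 and 127 CPM in IM 6h and 56.8, 74.8 and 102 CPM in IM 18h. All libraries of 6 h and 18 h lay below CTRL, and replicate 2 was the lowest at 6 h while replicate 1 was the lowest at 18 h. The log2 fold change was -0.82 (SE 0.24, edgeR adjusted p 0.0207) at 6 h and -1.50 (SE 0.24, edgeR adjusted p 3.57e-05) at 18 h. The call at 6 h was lost without CTRL replicate 3 (edgeR adjusted p 0.0619) or IM 6h replicate 2 (edgeR adjusted p 0.0830), with log2 fold changes of -0.76 and -0.63.

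TAL1 (ENSG00000162367, chr1:47216290-47232220), the basic helix-loop-helix factor of the GATA1 complex, showed the largest rise. It had 168, 151 and 144 CPM in CTRL and 141, 161 and 147 CPM in IM 1h. It then had 199, 305 and 327 CPM in IM 6h and 463, 410 and 394 CPM in IM 18h. The 6 h libraries were all above CTRL and the 18 h libraries were all above those of 6 h, with replicate 1 the lowest at 6 h and the highest at 18 h. The log2 fold change was 0.84 (SE 0.14, edgeR adjusted p 0.000185) at 6 h and 1.45 (SE 0.14, edgeR adjusted p 4.59e-08) at 18 h, a 2.74-fold higher level.

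Part of the TAL1 count could come from the opposite strand. Its exons share 845 bases, 14.8% of their length, with an unnamed antisense lncRNA (ENSG00000226252), and counting took no account of strand. That lncRNA had a mean of 3.96 CPM in mRNA CTRL and 13.1 CPM in IM 18h, so it was also higher, at a level far below that of TAL1. The part of antisense reads in the TAL1 counts was not tested.

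KLF1 (ENSG00000105610, chr19:12884423-12887181), the activator of adult globin and many other red cell genes, had 93.1, 74.4 and 89.0 CPM in CTRL and 79.9, 87.7 and 94.8 CPM in IM 1h. It had 119, 155 and 154 CPM in IM 6h and 196, 166 and 193 CPM in IM 18h. CTRL and 1 h overlapped, all 6 h libraries lay above both, and all 18 h libraries lay above those of 6 h. The log2 fold change was 0.74 (SE 0.14, edgeR adjusted p 0.000878) at 6 h and 1.11 (SE 0.14, edgeR adjusted p 1.67e-06) at 18 h.

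LMO2 (ENSG00000135363, chr11:33858576-33892289), the LIM-only bridge between TAL1 and LDB1, differed more between replicates than the other factors called. It had 59.6, 76.5 and 110 CPM in CTRL, 83.8, 55.2 and 128 CPM in IM 6h, and 171, 138 and 148 CPM in IM 18h. Replicate 3 was the highest LMO2 library in 8 of the 9 mRNA groups, IM 18h being the exception, and it was also the highest in 8 of 9 for GATA1, ZFPM1 and MYB. The 18 h libraries lay above all CTRL and 6 h libraries. The log2 fold change at 18 h was 0.89 (SE 0.31, edgeR adjusted p 0.0237), and the call was lost without CTRL replicate 1, CTRL replicate 2 or IM 18h replicate 1, with edgeR adjusted p values of 0.119, 0.0715 and 0.0810.

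LDB1 and NFE2 moved in the same direction at 18 h but stayed short of the fold limit. LDB1 (ENSG00000198728, chr10:102107560-102120453) had 185, 150 and 175 CPM in CTRL and 247, 248 and 245 CPM in IM 18h, a log2 fold change of 0.54 (SE 0.12, edgeR adjusted p 0.00107). NFE2 (ENSG00000123405, chr12:54292111-54301121) had 215, 232 and 197 CPM in CTRL and 335, 293 and 295 CPM in IM 18h, a log2 fold change of 0.52 (SE 0.12, edgeR adjusted p 0.00105). For both genes every IM 18h library lay above every CTRL library. ZFPM1 (ENSG00000179588, chr16:88453317-88537016) had 22.8, 24.3 and 32.3 CPM in CTRL and 41.4, 38.1 and 47.6 CPM in IM 18h. These libraries did not overlap either, with a log2 fold change of 0.68 (SE 0.33), but the edgeR adjusted p of 0.0972 missed the threshold. ZFPM1 was called in the fit with a replicate block (log2 fold change 0.70, edgeR adjusted p 0.00548), although the numbers in the titles did not pair these libraries. With the numbers of CTRL replicates 1 and 2 exchanged, the block gave 0.70 and an edgeR adjusted p of 0.00641. After that exchange, same-numbered IM 18h and CTRL libraries correlated only at 0.449, 0.340 and 0.123.

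GATA1 (ENSG00000102145, chrX:48786554-48794311) had 148, 154 and 194 CPM in CTRL and 140, 135 and 156 CPM in IM 18h. Libraries overlapped, with a log2 fold change of -0.20 (SE 0.15, edgeR adjusted p 0.299). Its group means over the 9 mRNA groups spanned 0.32 on the log2 scale, the narrowest span of the 9 factors tested, against 3.19 for GATA2.

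**Figure D2:**
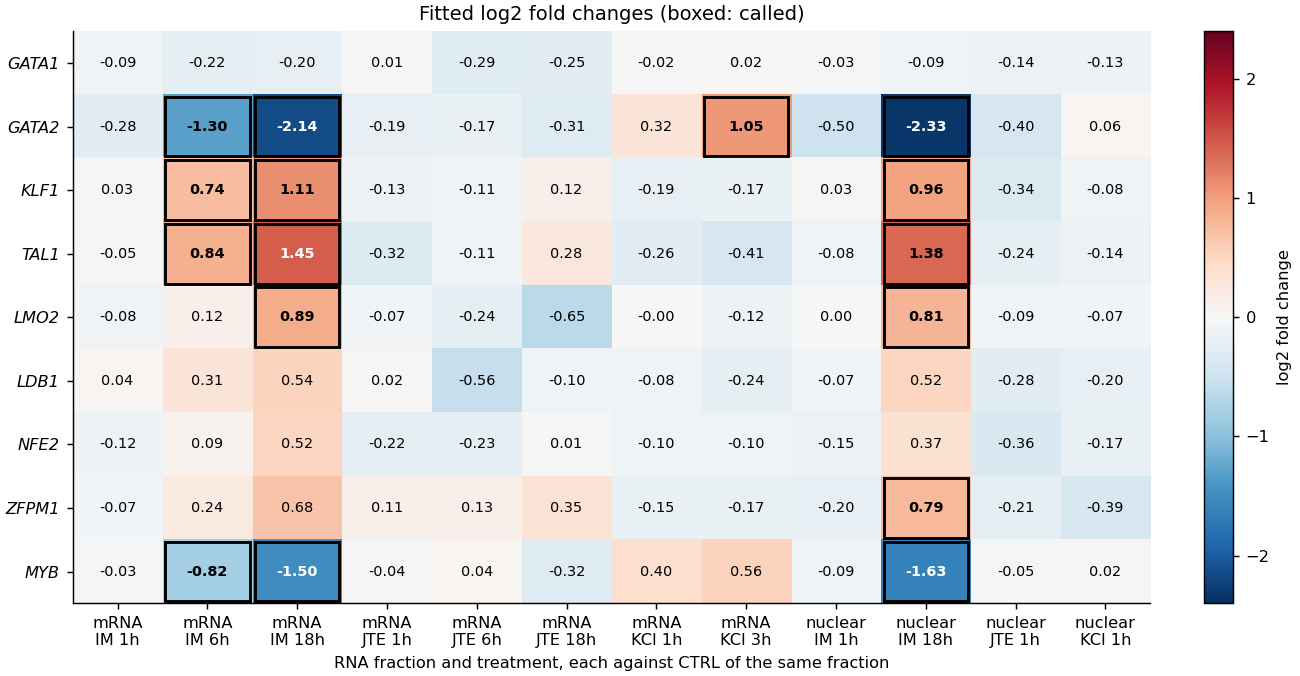
Fitted log2 fold changes of the 9 factors (rows) in each treatment against CTRL of the same RNA fraction (columns), with colour from blue (lower) to red (higher) and a box around each called value. Boxes lie in the IM 6h and IM 18h columns of mRNA, the IM 18h column of nuclear RNA and, for GATA2 alone, the KCl 3h column.

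The imatinib times were also compared with each other. Between IM 1h and IM 6h the same 4 factors as at 6 h were called, GATA2 (log2 fold change -1.02), MYB (-0.79), KLF1 (0.71) and TAL1 (0.89), where 8.20% of all genes were called. Between IM 6h and IM 18h, GATA2 (-0.84) and TAL1 (0.61) were called, where 4.41% of all genes were. The TAL1 value lies at the fold limit, and the call was lost without IM 18h replicate 1 (0.54) or IM 6h replicate 1 (0.42). It was also lost with library totals (0.59), without the low-count filter (0.57) and with only the groups compared (0.61, edgeR adjusted p 0.0537). LMO2 gave 0.78 (SE 0.31) and MYB gave -0.68 (SE 0.24) over that interval, with edgeR adjusted p values of 0.122 and 0.0806. DESeq2 called MYB (adjusted p 0.0402). The fit with a replicate block called both, LMO2 at 0.86 (edgeR adjusted p 0.00346) and MYB at -0.68 (edgeR adjusted p 0.0109). However, the numbers in the titles did not pair the IM 6h and IM 18h libraries, with correlations of same-numbered libraries from -0.295 to 0.246.

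No factor was called with JTE-607 at any time. At JTE 1h, 0.851% of all genes were called in mRNA, at JTE 6h 13.2% and at JTE 18h 5.39%. DESeq2 also called 0 factors at each time, and edgeR gave 1 factor with an unadjusted p under 0.05 at each time, namely TAL1, LDB1 and LMO2 in turn. LDB1, the enhancer-bridging subunit, had 95.8, 135 and 116 CPM in JTE 6h, all below the CTRL libraries given above. Its log2 fold change of -0.56 (SE 0.12, edgeR adjusted p 0.00191) was just short of the fold limit, and at 18 h it was -0.10 (SE 0.12). LMO2 had 47.2, 53.0 and 57.1 CPM in JTE 18h, again all below CTRL, with a log2 fold change of -0.65 (SE 0.31, edgeR adjusted p 0.220). GATA2 had 145, 164 and 150 CPM in JTE 18h, below CTRL in each library, with -0.31 (SE 0.16, edgeR adjusted p 0.255).

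Imatinib and JTE-607 were then compared directly at the same time, at their different doses. At 6 h, 5 of 9 factors were called, where 23.8% of all genes were. KLF1 (log2 fold change 0.85), TAL1 (0.96) and LDB1 (0.86) were higher with imatinib, and GATA2 (-1.13) and MYB (-0.86) were lower. At 18 h, 6 of 9 were called, where 30.3% of all genes were. LMO2 (1.54, SE 0.32), TAL1 (1.18), KLF1 (0.99) and LDB1 (0.64) were higher with imatinib, and GATA2 (-1.83) and MYB (-1.18) were lower. The LDB1 value at 18 h lies near the fold limit, and it was no longer called without JTE 18h replicate 1 (0.58) or replicate 3 (0.59). LMO2 at 18 h combined a rise with imatinib and JTE-607 libraries that all lay below CTRL.

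KCl moved GATA2 the other way. No factor was called in mRNA at KCl 1h by edgeR or DESeq2, none had an unadjusted p under 0.05, and 5.45% of all genes were called. At KCl 3h, GATA2 was called and the other 8 factors tested were not, where 11.9% of all genes were called. GATA2 had 210, 218 and 281 CPM in KCl 1h and 379, 373 and 429 CPM in KCl 3h, each above all CTRL libraries. The log2 fold change was 0.32 (SE 0.16, edgeR adjusted p 0.378) at 1 h and 1.05 (SE 0.16, edgeR adjusted p 5.41e-05) at 3 h. Between KCl 1h and KCl 3h it was 0.73 (SE 0.16, edgeR adjusted p 0.00654), the only factor called in that comparison, where 3.29% of all genes were. That call was lost without KCl 1h replicate 2 (log2 fold change 0.68, edgeR adjusted p 0.0515).

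MYB and TAL1 differed from CTRL in opposite directions in KCl without being called. MYB had 276, 262 and 431 CPM in KCl 3h, above all CTRL libraries and highest in replicate 3, with a log2 fold change of 0.56 (SE 0.24, edgeR adjusted p 0.126). TAL1 had 111, 127 and 110 CPM in KCl 3h, all below CTRL, with -0.41 (SE 0.14, edgeR adjusted p 0.0448), which is short of the fold limit. Some markers of another lineage also moved in KCl 3h. Of the 3 myeloid markers tested there, 2 were called higher and 1 was not called, where 11.9% of all genes were called. The 2 called higher were the receptor CSF1R, at a mean of 2.38 CPM against 0.129 CPM in CTRL, and CD14, at 1.72 CPM against 0.294 CPM. Both were named after their values were seen. The summed level of the 5 myeloid markers was 9.69 to 15.6 CPM in KCl 3h and 5.76 to 11.2 CPM in CTRL, which overlapped. Of these markers, the granule genes MPO and ELANE had means of 0.467 and 0.0165 CPM in KCl 3h. The part of the myeloid markers in the GATA2 result was not tested.

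**Figure D3:**
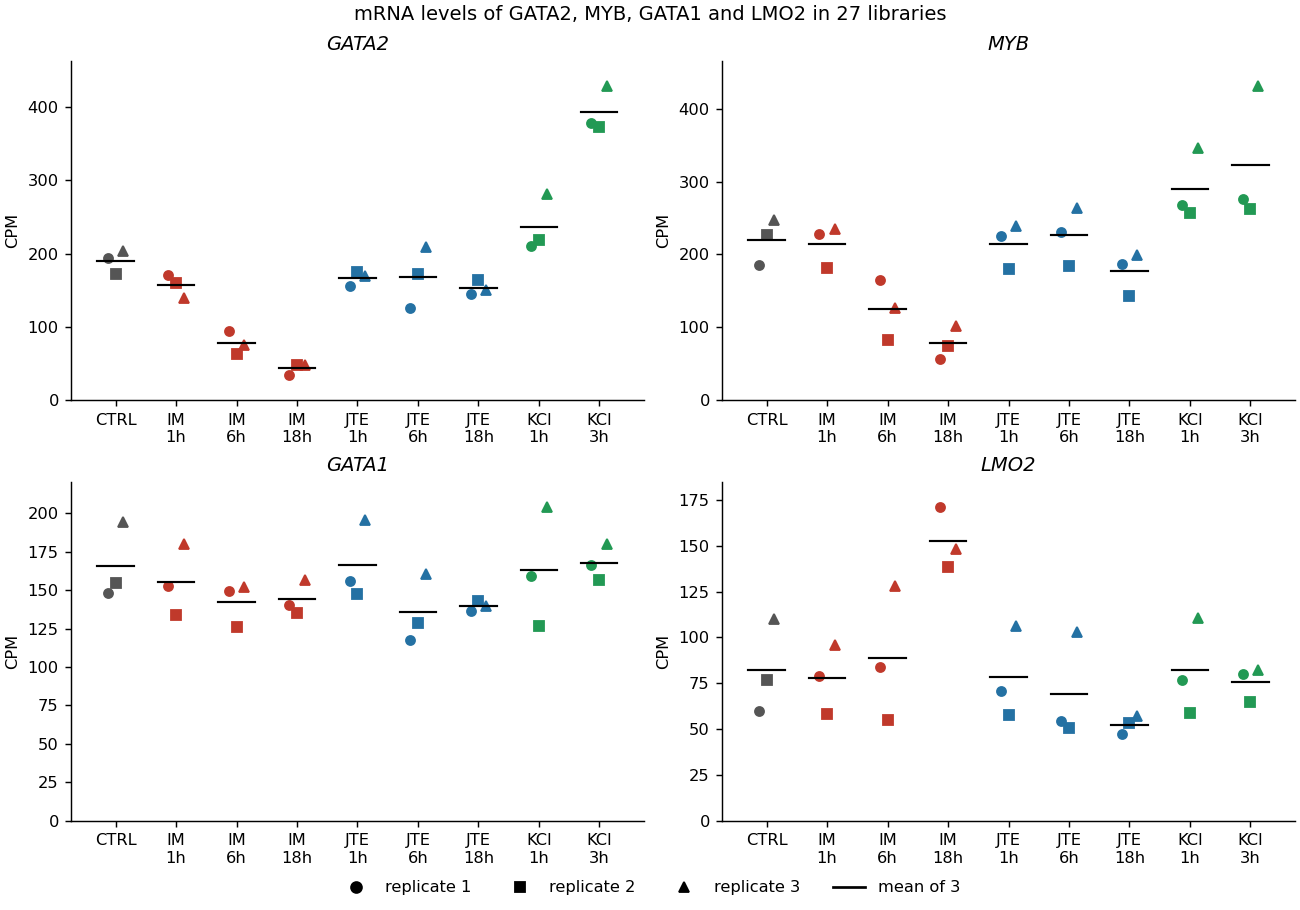
mRNA level in CPM (vertical axes, from 0) of GATA2, MYB, GATA1 and LMO2 in the 9 mRNA groups, with 1 symbol per library shaped by replicate number and a bar at the mean of 3. GATA2 ranges from 33.9 CPM in IM 18h to 429 CPM in KCl 3h, and replicate 3 is the highest library in most groups for GATA1 and LMO2.

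The same question was put to nuclear RNA, which holds transcripts before export. At 18 h of imatinib 6 of 9 factors were called there, 4 higher and 2 lower, where 32.6% of all genes were called (17.2% higher and 15.4% lower). GATA2 had 286, 320 and 283 CPM in nuclear CTRL and 37.2, 74.3 and 65.5 CPM in nuclear IM 18h, a log2 fold change of -2.33 (SE 0.17, edgeR adjusted p 1.69e-08). MYB had 230, 192 and 194 CPM in nuclear CTRL and 52.8, 80.6 and 65.8 CPM in nuclear IM 18h, a log2 fold change of -1.63 (SE 0.15, edgeR adjusted p 1.12e-07). For both, all treated libraries lay far below all CTRL libraries.

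The factors that rose did so in nuclear RNA as well. TAL1 had 180, 201 and 230 CPM in nuclear CTRL and 565, 470 and 556 CPM in nuclear IM 18h (log2 fold change 1.38, SE 0.14, edgeR adjusted p 1.83e-07). KLF1 had 108, 143 and 147 CPM in nuclear CTRL and 233, 252 and 287 CPM in nuclear IM 18h (0.96, SE 0.19, edgeR adjusted p 0.000742). Neither gene's groups overlapped. LMO2, so variable in mRNA, had 90.6, 87.4 and 95.0 CPM in nuclear CTRL and 171, 140 and 168 CPM in nuclear IM 18h (0.81, SE 0.10, edgeR adjusted p 1.28e-06). ZFPM1 had 34.6, 39.7 and 40.1 CPM in nuclear CTRL and 51.6, 67.7 and 78.1 CPM in nuclear IM 18h (0.79, SE 0.13, edgeR adjusted p 4.72e-05), so it was called in this fraction. LDB1 (0.52, edgeR adjusted p 0.000446) and NFE2 (0.37, edgeR adjusted p 0.00209) were again above CTRL in every library and short of the fold limit.

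An interaction term compared how far nuclear RNA and mRNA had moved, and no factor was called in any of the 4 treatments by edgeR or by DESeq2. The share of all genes called was 0.0901% for IM 18h, 0.0605% for JTE 1h, 0.668% for KCl 1h and 0% for IM 1h, where edgeR gave 395 of 19420 genes an unadjusted p under 0.05 and DESeq2 called 0. For IM 18h the log2 fold change in nuclear RNA minus that in mRNA was -0.14 (SE 0.28) for GATA2, -0.08 (SE 0.28) for MYB, -0.02 (SE 0.16) for TAL1 and -0.10 (SE 0.18) for KLF1. None of the 9 factors had an unadjusted p under 0.05 in the IM 1h, IM 18h or JTE 1h interaction. In KCl 1h GATA2 (-0.36, SE 0.16) and MYB (-0.48, SE 0.21) did, with edgeR adjusted p values of 0.469 and 0.447.

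**Figure D4:**
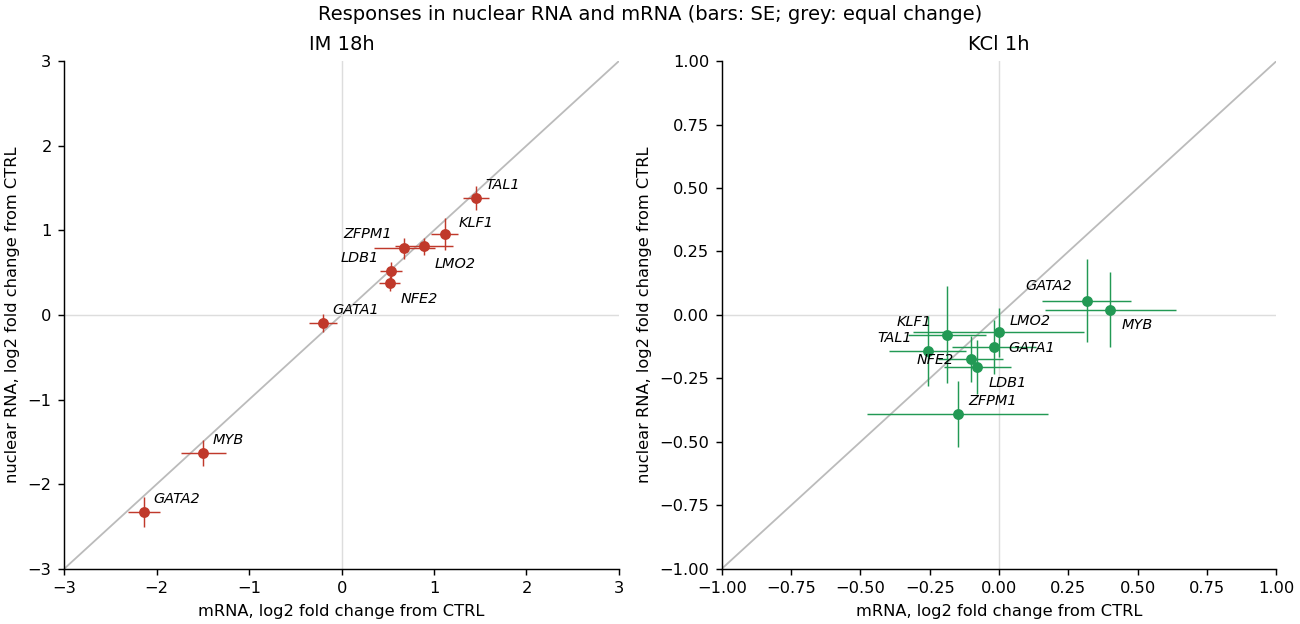
Log2 fold change from CTRL in mRNA (horizontal axis) and in nuclear RNA (vertical axis) of the 9 factors, for IM 18h on the left and KCl 1h on the right, with SE bars and a grey line of equal change. The IM 18h points lie close to that line from GATA2 (-2.14 and -2.33) to TAL1 (1.45 and 1.38), and in KCl 1h GATA2 and MYB lie to the right of it.

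At the other nuclear times no factor was called by edgeR or DESeq2. For nuclear IM 1h, 0.0456% of all genes were called and 1 factor, GATA2, had an unadjusted p under 0.05. GATA2 had 214, 222 and 194 CPM in nuclear IM 1h, below all nuclear CTRL libraries, with a log2 fold change of -0.50 (SE 0.16, edgeR unadjusted p 0.00757 and adjusted p 0.879). The fit with a replicate block gave -0.50 and an edgeR adjusted p of 0.195. For nuclear JTE 1h, 8.52% of all genes were called and 3 factors had an unadjusted p under 0.05. NFE2 was lowest relative to its error, at 225, 268 and 260 CPM against 297, 338 and 331 CPM in nuclear CTRL, with -0.36 (SE 0.09, edgeR adjusted p 0.0134). GATA2 had 225, 241 and 208 CPM there (-0.40, SE 0.16, edgeR adjusted p 0.155) and LDB1 had 172, 206 and 212 CPM (-0.28, SE 0.11, edgeR adjusted p 0.114), and all 3 genes were below nuclear CTRL in every library. With the replicate block, edgeR adjusted p was 0.000164 for NFE2, 0.00252 for LDB1, 0.00104 for KLF1 (-0.36) and 0.0272 for TAL1 (-0.25). These factors stayed short of the fold limit in that fit. For nuclear KCl 1h, 23.8% of all genes were called and 1 factor, ZFPM1, had an unadjusted p under 0.05. It had 26.9, 30.0 and 30.2 CPM, below nuclear CTRL in each library, with -0.39 (SE 0.13, edgeR adjusted p 0.0287), short of the fold limit. The replicate block gave ZFPM1, LDB1 (-0.20) and NFE2 (-0.17) edgeR adjusted p values of 0.000432, 0.0147 and 0.0432, none beyond the fold limit. Myeloid markers were higher in the same libraries, with 3 of 4 tested called higher and a median log2 fold change of 3.01. Their summed level was 18.8 to 30.5 CPM in nuclear KCl 1h and 7.43 to 8.04 CPM in nuclear CTRL, and ELANE, at a mean of 0 in nuclear CTRL, had 0.244 CPM. Their part in the values of the factors was not tested.

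The ratio of GATA1 to GATA2, taken within each library as CPM per kb of exons, does not depend on library size. In mRNA it was 2.26 to 2.84 in CTRL, 2.48 to 3.85 in IM 1h, 4.73 to 5.99 in IM 6h and 8.36 to 12.3 in IM 18h. The 6 h and 18 h ranges did not overlap CTRL or each other. It was 1.73 to 2.25 in KCl 1h and 1.25 to 1.31 in KCl 3h, both below CTRL, and it overlapped CTRL at all 3 times of JTE-607. In nuclear RNA the ratio was 2.07 to 2.44 in CTRL, 2.73 to 3.53 in IM 1h and 8.67 to 14.4 in IM 18h. Here the IM 1h libraries stood clear of CTRL, which those of mRNA did not. The difference in this ratio between the 2 fractions was not tested.

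On the log2 scale the mean ratio differed from CTRL by 1.10 in mRNA IM 6h, 1.96 in mRNA IM 18h, -1.02 in mRNA KCl 3h, 0.47 in nuclear IM 1h and 2.29 in nuclear IM 18h. A 2-sided exact permutation test gave p = 0.1 in each, which is the smallest value that 3 against 3 libraries allow. Over the family of 12 comparisons with CTRL the smallest Benjamini-Hochberg adjusted p was 0.2 (exact permutation test), so this design cannot reach 0.05. GATA1 was not called in any comparison, and the ratio holds the same GATA2 values as those given above.

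**Figure D5:**
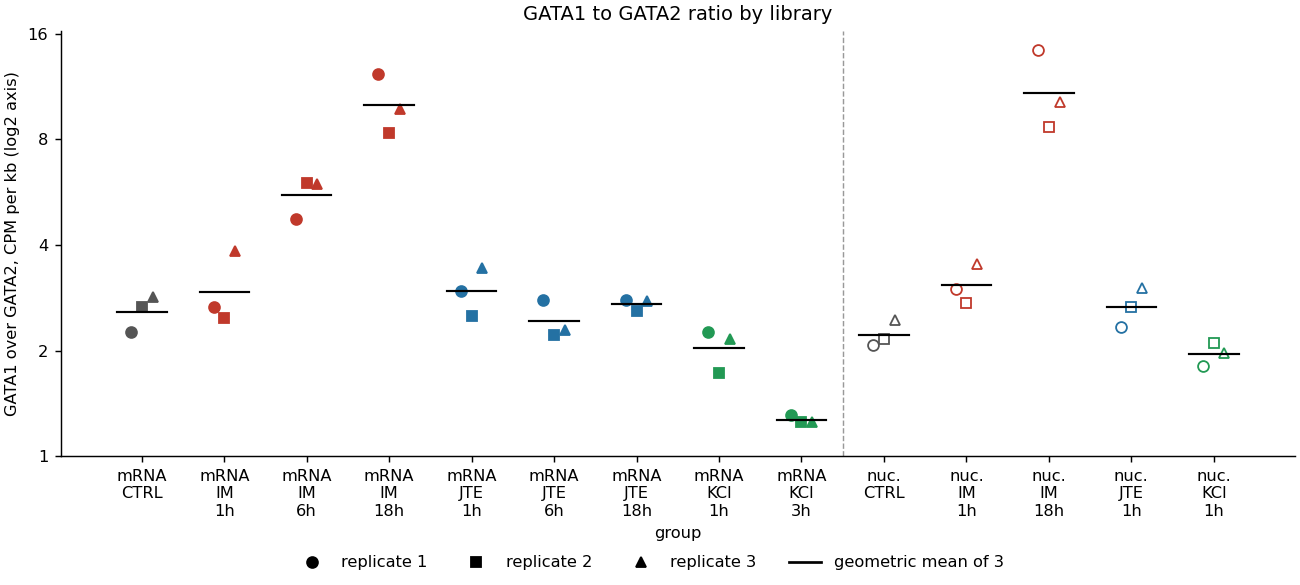
Ratio of GATA1 to GATA2, each in CPM per kb of exons, in every library (vertical axis, log2 scale) of the 9 mRNA groups (filled symbols) and 5 nuclear groups (open symbols, right of the dashed line), with a bar at the geometric mean of 3. The ratio climbs from 2.26 to 2.84 in mRNA CTRL to 8.36 to 12.3 in mRNA IM 18h and drops to 1.25 to 1.31 in mRNA KCl 3h.

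Partner and target genes from lists were examined at the same times, and every count in mRNA IM 18h stands beside the 30.5% of all genes called in that comparison (17.2% higher and 13.2% lower). Among 9 LDB1 complex partners in mRNA IM 18h, 1 was called higher and 1 lower, with a median log2 fold change of -0.08. They were a pair of single-stranded DNA binding proteins that stabilise LDB1, SSBP3 (0.62, SE 0.09) and SSBP2 (-0.74, SE 0.11). Among 6 partners and relatives of NFE2, 1 was higher and 2 were lower, with a median of -0.40. BACH1, a haem-sensing repressor that competes for small MAF proteins, rose by 0.65 (SE 0.16), while the small MAF genes MAFK (-1.11, SE 0.20) and MAFF (-1.70, SE 0.36) fell.

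Other genes linked to globin repression were counted in the same way. Of the 20 on this list, 1 was called higher and 2 lower at IM 18h, again beside 30.5% of all genes. An unadjusted p under 0.05 in edgeR was found for 14, and the median log2 fold change was -0.04. KLF3, a repressor that binds the same boxes as KLF1, rose by 0.73 (SE 0.21). GATAD2A, a subunit of the NuRD complex, changed by -0.79 (SE 0.12), and LIN28B, an RNA-binding protein of fetal blood cells, by -1.13 (SE 0.19). LIN28B was on the list but is not itself a globin repressor. Of 12 transcription factors listed for other blood lineages, 9 were tested and 1 was called higher and 2 lower, with a median of -0.50. The gene called higher, GFI1B, is a repressor needed for red cells and platelets, so it does not mark another lineage alone. It had a mean of 42.7 CPM in CTRL and 106 CPM in IM 18h (1.31, SE 0.38). SPI1, the myeloid factor that opposes GATA1, went from 16.4 to 4.12 CPM (-1.99, SE 0.61), and HHEX, a homeobox factor of progenitors, from 90.6 to 16.3 CPM (-2.47, SE 0.38).

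The erythroid target genes of these factors rose almost as a whole. Of 22, 21 were called higher and 1 lower in mRNA IM 18h, with a median log2 fold change of 1.97. The 2 with the largest rise were the membrane genes SLC4A1, the anion exchanger, with 6.07 ± 2.34 CPM (SD, n = 3) in CTRL and 562.2 ± 406 CPM in IM 18h, and EPB42, with 2.98 ± 1.49 and 86.0 ± 26.8 CPM. The exception was BCL2L1, a survival gene of late red cells, at 99.7 ± 12.9 and 45.2 ± 4.79 CPM. At IM 6h 10 were higher and 1 lower, where 9.94% of all genes were called. In nuclear IM 18h 20 were higher and 1 lower, where 32.6% of all genes were called. In KCl 3h edgeR called 0, with 1 at an unadjusted p under 0.05, where 11.9% of all genes were called. The list was chosen with earlier results of these data known. Of the markers of other lineages tested in mRNA IM 18h, 1 of 3 megakaryocyte markers was called higher, and 0 of 3 myeloid markers were called by edgeR, none of these with an unadjusted p under 0.05. Their median log2 fold changes were 1.03 and -0.75 in turn. In nuclear IM 18h 0 of 4 myeloid markers were called by edgeR, with 1 at an unadjusted p under 0.05. The megakaryocyte gene called was ITGB3, at 0.308 CPM in CTRL and 2.20 CPM in IM 18h. Summed levels in IM 18h were 6.16 to 8.95 CPM for megakaryocyte, 3.31 to 7.59 CPM for myeloid and 1.14 to 2.31 CPM for lymphoid markers, and their part in the results was not tested.

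The 3 factors with the widest range over the 9 mRNA groups were GATA2, MYB and TAL1, and the genes most like them were found by Pearson r of group means of log2(CPM + 0.5) over those 9 groups, among 9602 genes. For GATA2 they were HES1 (0.994), EIF4A3 (0.988) and HSPA5 (0.985). For MYB they were PPP2R5A (0.994), DDX10 (0.991) and GORASP2 (0.988), and for TAL1 ELAPOR2 (0.991), SLC36A1 (0.991) and PGM2L1 (0.988). These values describe 9 points that come from the same libraries, and they carry no test.

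The positions of the genes limit how some counts can be read. Counting used exons and dropped alignments with introns over 10000 bases, and gaps between exons of that length occur once in LMO2 and MYB, 2 times in BCL11A and 3 times in ZFPM1. MYB shares 103 exon bases with MYB-AS1, whose mean was 0.417 CPM in mRNA CTRL. GATA2-AS1, which overlaps the GATA2 gene on the other strand but shares no exon bases with it, had 16.8 CPM in mRNA CTRL, 20.5 CPM in IM 18h and 18.8 CPM in KCl 3h. Upstream on the same strand, the nearest gene was expressed above 10 CPM only for TAL1, where STIL ends 17918 bases away and had 140 CPM in mRNA CTRL and 132 CPM in nuclear CTRL.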

How the data were processed

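Poly(A) mRNA (27 libraries, 9 groups) and nuclear RNA (15 libraries, 5 groups) of K562 cells were sequenced, and groups were read from the sample labels. The deposited values are counts, made by the authors by trimming and deduplicating read pairs with fastp, aligning them with STAR to GRCh38.p14 with introns of up to 10000 bases, and counting pairs over exons by gene with featureCounts, 1 location per read. No strand option was stated although the kit marks strand, so antisense reads may enter a gene's counts. The annotation release is not given in the sources used here.

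Symbols and gene types came from GENCODE 44, which held 57532 of 58243 gene IDs. Gene positions, strands and exons were those deposited with the counts. Counts were filtered with filterByExpr, scaled by TMM and fitted for each fraction across all its libraries with edgeR 4.0.16 (R 4.3.3, limma 3.58.1), 1 term per group. A call required both a log2 fold change beyond 0.6 and p under 0.05 after Benjamini-Hochberg adjustment, and the SE is the log2 fold change divided by the square root of F. Nuclear and mRNA responses were compared in a joint fit with an interaction term. DESeq2 1.42.0, DESeq2 size factors, library totals, no low-count filter, no fold limit, only the groups compared, a replicate block and leaving out each library were alternatives. Scripts were tested on simulated data.

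Members and lists were chosen with earlier results of these data known. Named were all 10 factors, up to 2 rising and 2 falling genes of each list, those that changed most among the calls at IM 18h, list genes called in the interaction, the 3 genes most like each of the 3 factors with the widest range (group mean of at least 10 CPM in some group), and overlapping or upstream genes.

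Pairing was judged by the replicate numbers in the titles. Deviations of same-numbered libraries from their group means were correlated over 9024 genes. Every pair passed an r of 0.1 for IM 6h against IM 1h (0.466 to 0.538), KCl 3h against KCl 1h (0.578 to 0.667), IM 6h against JTE 6h (0.413 to 0.572) and all nuclear comparisons with CTRL (0.241 to 0.889), but not for the other mRNA comparisons. The study's supplement, by its read totals, numbers mRNA CTRL replicates 1 and 2 the other way round from the titles. Titles were kept, and a block with these numbers exchanged was added after seeing the data.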

Additional observations from a re-analysis of the deposited data

Results flagged for a closer look

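The effects of treatments at different times differed by a test of the difference itself for the following factors, all in mRNA and by edgeR over all genes tested. Between 1 h and 6 h of imatinib, GATA2 changed by -1.02 on the log2 scale (adjusted p 0.000212), KLF1 by 0.71 (adjusted p 0.00157), TAL1 by 0.89 (adjusted p 0.000159) and MYB by -0.79 (adjusted p 0.030), each with no overlap between the 3 libraries of either time. Between 6 h and 18 h of imatinib, GATA2 changed by -0.84 (adjusted p 0.00333) and TAL1 by 0.61 (adjusted p 0.00892), again without overlap. Between 1 h and 3 h of KCl, GATA2 changed by 0.73 (adjusted p 0.00654), so it moved with time in opposite directions in KCl and imatinib. That opposition was not tested as a difference. Leaving out IM 1h replicate 1 or 3, or IM 6h replicate 2 or 3, ended the MYB call for that interval, with adjusted p values from 0.0589 to 0.122. It also ended with library totals (adjusted p 0.0583) and with only the groups compared (adjusted p 0.0601), so it was lost in 6 of 14 alternatives. The TAL1 call between 6 h and 18 h of imatinib was lost in 5 of 14 alternatives. For KCl, the GATA2 call was lost without KCl 1h replicate 2 (adjusted p 0.0515).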

How the results depend on the processing

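None of the 34 called factor results changed sign under an alternative, whereas 63 of the 155 that were not called did under at least 1. Of 2817 alternative values for 189 factor results, 34 gained a call and 22 lost one. The count of factors called at JTE 6h, 0 as reported, was 1 (LDB1) with library totals, without the fold limit and without the low-count filter, and 0 to 1 on leaving out single libraries. At JTE 18h it was 1 (LMO2) without the low-count filter and with the replicate block. Without the fold limit it was 2 at KCl 3h, 1 in nuclear JTE 1h and 1 in nuclear KCl 1h. For IM 18h against IM 6h, 2 as reported, it was 1 with library totals and with only the groups compared, 4 with the replicate block (GATA2, TAL1, LMO2 and MYB), also with exchanged CTRL numbers, and 1 to 3 on leaving out single libraries. The numbers in the titles did not pair the IM 18h and IM 6h libraries, and exchanging CTRL numbers leaves that pairing as it was. For KCl 3h against KCl 1h it was 0 to 1 on leaving out single libraries. Apart from changes that follow from dropping the fold limit, the cause was not tested.

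MYB at IM 6h, called as reported, had an adjusted p of 0.0985 without replicate 3 of every mRNA group, an alternative chosen after seeing the data. ZFPM1 at IM 18h was called without the low-count filter, with only the groups compared and without replicate 3 of every group (adjusted p from 0.00116 to 0.0120). In the comparisons where the numbers pair the samples, the replicate block changed no call of a factor. For nuclear JTE 1h and KCl 1h it gave several uncalled factors an edgeR adjusted p under 0.05, all short of the fold limit. In mRNA against CTRL the numbers in the titles did not pair the samples. There, treated replicate 1 correlated best with CTRL replicate 2 and treated replicate 2 with CTRL replicate 1 (for IM 1h, r of 0.815 and 0.826 against own-number values of -0.216 and -0.261), and the study's supplement numbers these CTRL libraries the other way round from the titles. The match was weaker at 18 h. For IM 18h these best r were 0.449 and 0.340, and replicate 3 correlated best with CTRL replicate 1 (0.129). For JTE 18h they were 0.106 and 0.244, and replicate 3 correlated best with CTRL replicate 2 (0.158). With the numbers of CTRL replicates 1 and 2 exchanged, an alternative chosen after seeing the data, the replicate block called ZFPM1 at IM 18h, making 6 factors, and 0 at JTE 18h. Groups of 3 limit every test.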

Other observations

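Partner genes in nuclear RNA at 18 h of imatinib gave further calls, named here after their values were seen. In that comparison 32.6% of all genes were called, 17.2% higher and 15.4% lower. Of the 9 LDB1 complex partners tested, 3 were lower, SSBP2 (log2 fold change -0.76), SSBP4 (-0.71) and CBFA2T3 (-0.73), a corepressor of the TAL1 complex. Of the 6 NFE2 partners and relatives tested, 3 were lower, MAFF (-1.93), MAFK (-1.38) and NFE2L2 (-0.64), the stress-response relative of NFE2. Of the 9 factors tested from the list for other lineages, GFI1B was higher (1.12) and SPI1 (-0.91), MEIS1 (-0.83) and HHEX (-2.78) were lower.

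At KCl 3h in mRNA, 11.9% of all genes were called. Of the 6 NFE2 partners and relatives tested, MAFF was higher (1.29) and BACH1 lower (-0.70), the reverse of their directions at IM 18h. Of the 20 other genes linked to globin repression, NR2C2 (-0.79) and KLF3 (-0.60) were lower. These genes were named after their values were seen, and the difference between the treatments was not tested.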
